A study of Mus musculus with 4 samples.

Results

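Kinesins are motor proteins that burn ATP to move along microtubules or to take microtubule ends apart, and the m6A peaks over the 42 mouse genes that encode them are described here. Members were the protein-coding genes of GENCODE M21 (mm10) whose symbols begin with Kif or Kifc followed by a number, 42 of 21866 protein-coding genes with a coding transcript. Symbols outside that pattern, such as the kinesin Cenpe or the light chains Klc1 to Klc4, were counted apart as partners. N6-methyladenosine (m6A) is a methyl mark on adenosines inside mRNA, and m6A-seq maps it by sequencing mRNA fragments pulled down with an antibody to m6A beside the unselected fragments, the input. The material was whole brain of C57BL/6J mice 4 weeks old, and the design line of the series gives the animals as Prrc2a flox/flox, that is, with both copies of Prrc2a flanked by loxP sites. No Cre driver and no treatment are named for these samples, and how many animals went into each is not stated. There were 2 m6A IP samples, each called against its own input, and 2 input samples, of 1 condition. The design therefore held no comparison between conditions, and the values below are counts, shares and fold enrichments from both replicates with no test. The study's text calls the samples biological replicates, while the labels do not say whether they came from separate animals.

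In neurons, kinesins carry vesicles, mitochondria and protein complexes from the cell body into axons and dendrites, while cytoplasmic dynein moves cargo back. Most kinesins have the motor domain at the amino end, followed by coiled coil and a cargo-binding tail, whereas the kinesin-14 group has it at the carboxyl end. A separate set of kinesins builds the spindle and divides the cell, and is known mainly from proliferating cells. Methylation of mRNA is placed on adenosines within short motifs, often but not always with GGAC, and is known for its density in long internal exons and around stop codons.

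Replicate 1 had 38533 peaks over the genome and replicate 2 had 30134, with a median fold enrichment (IP over input, linear scale) of 2.88 and 2.20. A peak that replicate 1 and replicate 2 had in common was recorded as a shared interval, the bases common to both. All 11 marker genes of neurons, oligodendrocytes, astrocytes and microglia held a shared interval, among them Snap25, Mbp, Aqp4 and Csf1r, and of 4 genes of other tissues Myh6 held one and Alb, Ins2 and Ckm held none. The files list peaks without read counts, so depth was unknown and the level of each mRNA was not analysed here. A gene without a peak may therefore lack methylation or lack enough mRNA in whole brain, and these cannot be told apart.

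At least 1 exonic peak was called in 28 of the 42 kinesin genes in replicate 1 (66.7%, Wilson 95% interval 51.6 to 79.0), where the share over all protein-coding genes was 54.4%. Replicate 2 had a peak in 24 (57.1%, 42.2 to 70.9), beside 49.5% over all genes. A shared interval was present in 22 (52.4%, 37.7 to 66.6), beside 45.5%. Kinesin mRNAs were long, with a median of 4698 nt against 2540 nt over all genes. Among mRNAs of at least 3000 nt the share was 20 of 33 kinesin genes (60.6%, 43.7 to 75.3), beside 64.1% of all genes of that length. The share of kinesin genes with a shared interval was thus near that of other genes once length was considered, while the number per gene was not small. The 22 genes held 100 shared intervals, with a median of 4 per gene against 2 over all protein-coding genes with one, and 0.758 against 0.583 per kb of mRNA.

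**Figure D1:**
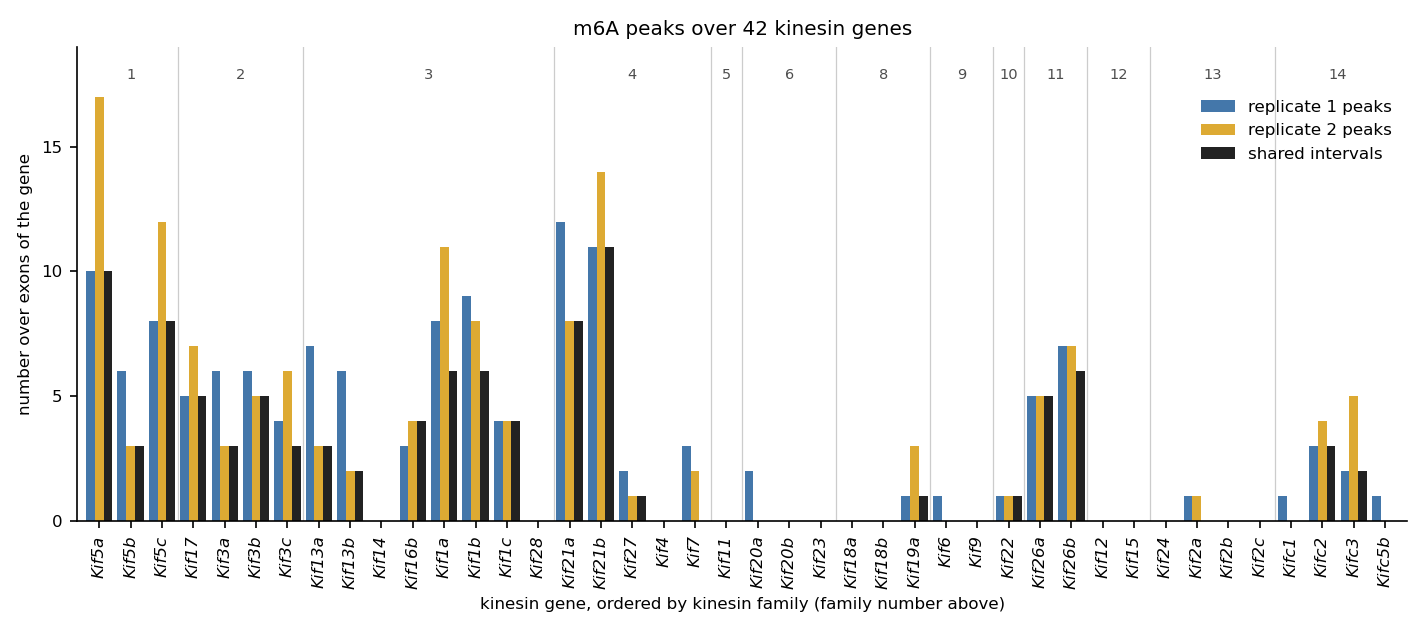
Number of replicate 1 peaks (blue), replicate 2 peaks (yellow) and shared intervals (black) over the exons of each of the 42 kinesin genes, ordered by family, with the family number above. Kif5a reached 17 peaks in replicate 2 and Kif21b 11 shared intervals, and 14 genes had no peak in either list.

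By role, of the 18 motors listed for transport and their close relatives, 17 held a shared interval (94.4%, 74.2 to 99.0), all but Kif2a, a microtubule depolymerase that trims axon branches, where the share over all protein-coding genes was 45.5%, or 64.1% for those with an mRNA of at least 3000 nt. Of 13 members tied to mitosis or proliferation, 1 did (7.69%, 1.37 to 33.3), the chromosome-arm motor Kif22. Both lists were compiled with earlier results of these data known, so the contrast between them is no independent evidence, and the counts describe them without a test.

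As examples of sequence under the peaks, the motif closest to the middle of the strongest intervals is printed here. Each stretch was picked for its motif, so the presence of the motif in it is no result. The ranking took, for each interval, whichever replicate gave the smaller fold. Each line is in the sense of the mRNA, 5′ to 3′, from GENCODE M21 transcripts on mm10, with GGACT, or GGAC where the interval holds no GGACT, in capitals and 12 bases on either side:
Kif26a, rank 1, exon 12, chr12:112176936-112176964, plus strand: ctcggaaacccaGGACTacctccacagcc
Kif16b, rank 2, exon 19, chr2:142711796-142711823, minus strand: gtgctccaccctGGACctggagatccag
Kif13a, rank 3, exon 37, chr13:46752354-46752382, minus strand: gaatgccatgcaGGACTgcttcatgttca
Kif13b, rank 4, exon 40, chr14:64806301-64806329, plus strand: cacctcccttgtGGACTcgaacaggaagg
Kif26b, rank 5, exon 15, chr1:178932447-178932475, plus strand: ggaagccccgtgGGACTgagaaagcactt
Kif3b, rank 6, exon 9, chr2:153332621-153332649, plus strand: acaatcctcttgGGACTctcttcctctgt
Kif26b, rank 7, exon 12, chr1:178916833-178916861, plus strand: ccgcctttcaagGGACTgataacgttagg
Kif3b, rank 8, exon 2, chr2:153317312-153317339, plus strand: aagggtcaatgaGGACccaaaggatgct
Kif5a, rank 10, exon 18, chr10:127236935-127236962, minus strand: gccagacacacaGGACgcggaggaggtg
The interval ranked 9, in the last exon of the shorter Kif1b mRNA, held neither motif and is not printed. Exon 12 of Kif26a headed the ranking, at 5.42-fold in replicate 1 and 3.79-fold in replicate 2. Exon 19 of Kif16b followed at 4.50 and 3.79, and exon 37 of Kif13a at 4.42 and 3.67. The Kif13b, Kif26b and Kif3b windows of ranks 4, 5 and 6 were in 3′ UTRs, at 3.56 and 4.18, 4.67 and 3.27, and 3.51 and 3.08. In the Kif13b 3′ UTR the A of the motif was 19 nt past the stop codon, and in Kif3b it was 2480 nt past it. The window of rank 10 was in exon 18 of Kif5a, within an interval that also covers exon 19. Among these 10 intervals only that of Kif5a was centred on an internal exon under 200 nt.

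Kif5a, Kif5b and Kif5c encode the heavy chains of kinesin-1, the motor that drives mitochondria and many vesicles down axons. Kif5a had 10 peaks in replicate 1, 17 in replicate 2 and 10 shared intervals, and Kif5c had 8, 12 and 8. Kif5b, the form also known from non-neuronal cells, had 6, 3 and 3. The highest folds were at 2 sites of Kif5a, exon 19, at 4.03 and 2.98, and a site in its 3′ UTR 1404 nt past the stop codon, at 5.52 and 2.46, and at no other shared interval of the 3 genes did either value pass 2.62. Kif5b intervals ran from 1.36 to 2.48 in replicate 1 and from 1.23 to 1.33 in replicate 2. Kif5c intervals ran from 1.31 to 2.62 and from 1.20 to 2.09.

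The 3 paralogs had some exons with intervals in common. Exons 11 (149 nt), 19 (110 nt) and 20 (102 nt) held a shared interval in Kif5a, Kif5b and Kif5c alike, out of 10, 3 and 8 exons with one, and those were all the exons with a shared interval in Kif5b. Exons 12, 18 and 25 held one in Kif5a and Kif5c, exons 1, 14 and 24 in Kif5a alone, and exon 15 in Kif5c alone. Exons were matched by number only, and exon 25 differs in length, 154 nt in Kif5a and 113 nt in Kif5c. A single Kif5a interval covered both exon 24 and exon 25. The last exon held one in Kif5a (exon 29) and in Kif5c (exon 26). Exon 11 had 2.01 and 1.15 in Kif5a, 1.36 and 1.33 in Kif5b, and 1.87 and 1.63 in Kif5c. Exon 19 had 2.48 and 1.27 in Kif5b and 2.11 and 1.53 in Kif5c. Across exons 2 to 10, which encode much of the motor domain, neither list had a peak in any of the 3 genes. Only uniquely mapped reads entered the peaks, and the exons differ between the genes. Exon 19 of Kif5a and Kif5c was identical at 73.6% of its bases, and exon 19 of Kif5a and Kif5b at 53.6%. Exon 19 is printed for Kif5a and Kif5c because it held their intervals without holding GGAC, with the 29 differing bases in capitals:
Kif5a exon 19, chr10:127236721-127236830, minus strand: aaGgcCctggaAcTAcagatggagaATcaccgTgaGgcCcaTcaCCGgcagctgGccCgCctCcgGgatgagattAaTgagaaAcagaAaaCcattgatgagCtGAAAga
Kif5c exon 19, chr2:49741939-49742048, plus strand: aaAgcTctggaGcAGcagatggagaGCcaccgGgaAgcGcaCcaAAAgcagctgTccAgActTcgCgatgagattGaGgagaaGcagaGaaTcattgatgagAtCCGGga
Neither copy contains GGAC, and the only GGAC of the Kif5a interval was the one in exon 18 printed above.

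**Figure D2:**
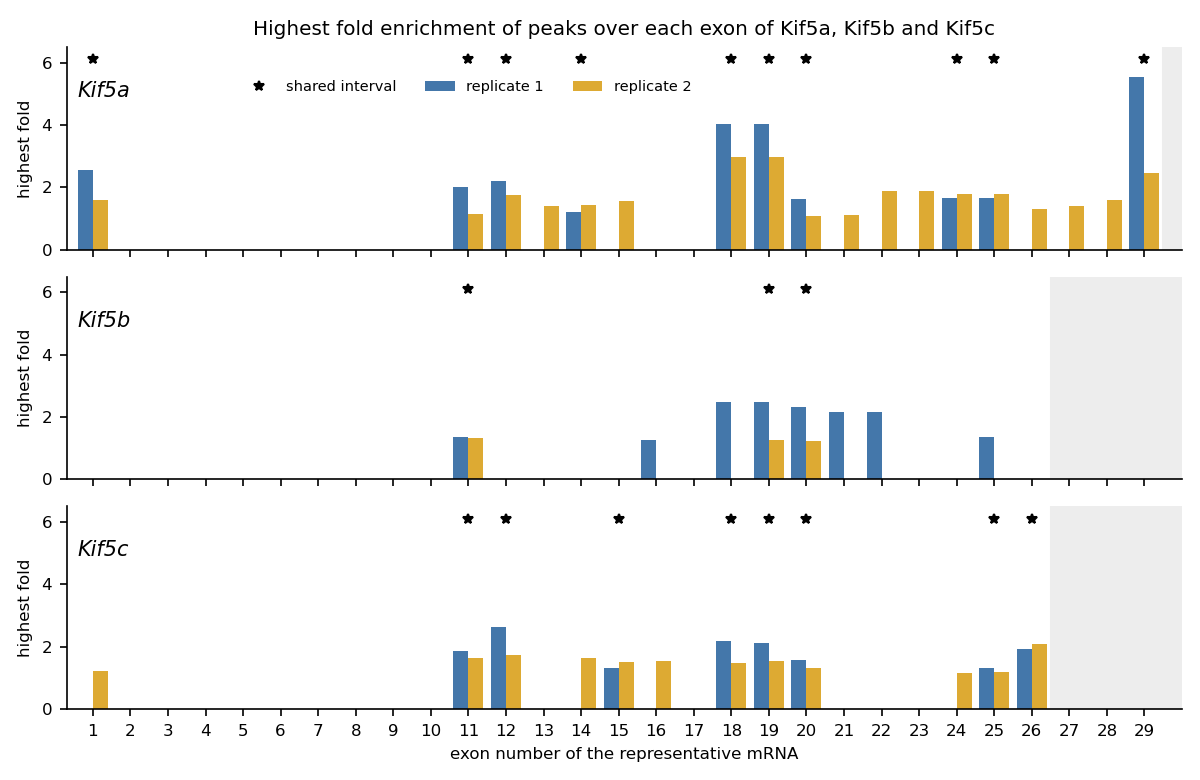
Highest fold enrichment of the peaks over each exon of Kif5a, Kif5b and Kif5c in replicate 1 (blue) and replicate 2 (yellow), with stars over exons that hold a shared interval and grey where the mRNA has no such exon. Exons 2 to 10 are empty in all 3 genes, and exons 11, 19 and 20 carry stars in all 3.

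All 4 kinesin-2 genes, which serve cilia and neuronal vesicle transport, held shared intervals (Wilson interval 51.0 to 100), beside 45.5% of all protein-coding genes. Kif3b, the partner of Kif3a in the heterotrimeric motor, had 5, and 2 of them were in its 1468-nt exon 2, at 4.09 and 3.01 and at 4.09 and 1.96, under a single wide replicate 1 peak. Kif3a had 6 peaks in replicate 1 and 3 in replicate 2, all 3 shared, in exons 9, 12 and 13, with folds of 3.24 to 4.89 in replicate 1 and 1.45 to 2.34 in replicate 2. Replicate 1 was higher at each of them. Kif3c, which can replace Kif3b beside Kif3a, had 3 shared intervals, and 2 were in its first exon of 2342 nt, at 3.34 and 2.64 and at 3.70 and 2.34. Kif17, a dendritic and ciliary motor, had 5 at 2.53 to 3.54 and 1.92 to 3.06, among them one in its last exon (2.53 and 3.06).

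Of the 8 kinesin-3 genes, 6 held shared intervals (Wilson interval 40.9 to 92.9) and Kif14 and Kif28 had no peak. Over all protein-coding genes 45.5% held one. All 8 mRNAs were longer than 3000 nt, and among all genes with an mRNA of at least 3000 nt the share was 64.1%. The Wilson interval includes both shares. Kif1a, which carries synaptic vesicle precursors, had 8 peaks in replicate 1, 11 in replicate 2 and 6 shared intervals, at 1.14 to 3.33 and 1.20 to 1.70. The interval at exon 21 had 3.33 in replicate 1 and the others at most 1.78. Kif13a and Kif13b, which carry endosomal and membrane cargo, had few intervals, the strong ones toward the 3′ end. Kif13a had 4.42 and 3.67 in its 792-nt exon 37 and 2.84 and 2.56 at 137 nt past the stop codon. Kif13b had 4.89 and 2.11 in its 757-nt exon 39 and 3.56 and 4.18 at 169 nt past the stop codon. Each of these genes had 4 further peaks in replicate 1 only. Kif16b, an early endosome motor, had 3 intervals in its 1344-nt exon 19, all under 1 replicate 1 peak of 4.50 and with replicate 2 values of 2.53, 1.66 and 3.79. Kif1c, a motor of Golgi and dense-core vesicles, had 4 intervals from exon 14 to the last exon, at 2.1 to 4.42 and 1.57 to 3.15.

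Kif1b, whose shorter and longer protein forms are known for moving mitochondria and synaptic vesicle precursors, had 6 shared intervals, and 3 of them were not on the long mRNA used as representative. They lay in the last exon, exon 21 of 21 and 4750 nt long, of a shorter coding transcript with a coding sequence of 3450 nt. Their values were 3.37 and 2.70, 3.37 and 3.0, and 3.30 and 2.84, and the last of these lay wholly in the coding part of that exon while the others were in its 3′ UTR. On the long mRNA the gene had 1.20 and 1.21 in exon 23, 1.89 and 1.74 at 223 nt past the stop codon, and 2.95 and 2.34 at 1843 nt past it. The shorter form's last exon thus held 3 of the 4 Kif1b intervals above 2-fold in both replicates. In the same way a Kif16b interval (4.40 and 1.90) lay across the stop codon in a 2443-nt last exon of other coding transcripts.

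Among kinesin-4 genes, Kif21b and Kif21a, neuronal motors that restrain microtubule growth, had 11 and 8 shared intervals. In Kif21b, 7 of them tiled neighbouring exons 8, 9 and 12 to 16, at 1.73 to 4.78 and 1.62 to 2.67, and 3 stood in the 3′ UTR, the strongest 2915 nt past the stop codon at 3.62 and 2.73. In Kif21a all 8 were in internal exons between exons 11 and 25, with folds between 1.65 and 4.68 in replicate 1 and between 1.42 and 2.58 in replicate 2. The exons at their middle ran from 39 nt (exon 12, at 3.73 and 2.00) to 204 nt (exon 11, at 3.80 and 2.58). The whole Kif21a mRNA held 1 GGACT and its intervals held none. Kif27, a relative of the Hedgehog regulator Kif7, had 1 shared interval in its 959-nt exon 4, at 2.37 and 2.64. Kif7 had 3 peaks in replicate 1 and 2 in replicate 2 over its exons, with no overlap between the lists inside an exon.

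The kinesin-11 genes Kif26a and Kif26b, atypical members known for lacking motor activity, held 4 intervals each in a single long exon. Exon 12 of Kif26a (2914 nt) held 4 of its 5 shared intervals, at 8.58 and 2.76, 5.42 and 3.79, 2.67 and 3.65, and 2.59 and 3.65, and 8.58 was the highest fold of any kinesin peak in either list. Exon 12 of Kif26b (3415 nt) held 4 of its 6, at 2.81 to 4.68 and 2.02 to 3.05, and 2 of these also touch exons of the noncoding gene Gm16564. Kif26b also had one in its first exon, in the 5′ UTR (2.81 and 3.51). Both genes had an interval just past the stop codon, at 124 nt in Kif26a (2.75 and 3.58) and at 144 nt in Kif26b (4.67 and 3.27). The middle 300 bases of the strongest interval in each exon 12 are shown with GGAC in capitals, since they differ in the number of motifs:
Kif26a, chr12:112176841-112177140, plus strand: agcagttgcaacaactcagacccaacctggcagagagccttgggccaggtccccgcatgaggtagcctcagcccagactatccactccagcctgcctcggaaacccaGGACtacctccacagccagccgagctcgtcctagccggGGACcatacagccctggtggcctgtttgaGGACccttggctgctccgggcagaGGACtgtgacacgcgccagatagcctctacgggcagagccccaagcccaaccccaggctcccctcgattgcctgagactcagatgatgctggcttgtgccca
Kif26b, chr1:178916555-178916854, plus strand: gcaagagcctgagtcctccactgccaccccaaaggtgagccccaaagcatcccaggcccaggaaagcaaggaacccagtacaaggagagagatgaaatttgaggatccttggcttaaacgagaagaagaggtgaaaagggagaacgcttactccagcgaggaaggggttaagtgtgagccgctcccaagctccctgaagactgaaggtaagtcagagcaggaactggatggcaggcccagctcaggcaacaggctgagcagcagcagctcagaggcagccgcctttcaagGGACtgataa
The Kif26a stretch holds 4 GGAC, 2 of them GGACT, and the Kif26b stretch holds 1, a GGACT near its 3′ end.

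Among the remaining families, Kifc2, a kinesin-14 of dendrites, had 3 shared intervals, the strongest at 3.42 and 2.43 around exon 6, and Kifc3, a minus-end motor of epithelial cargo, had 2, at 1.94 and 1.57 and at 2.25 and 2.00. Kif19a, which sets cilium length, had 1 at 116 nt past the stop codon (2.70 and 2.1), and Kif22 had 1 in exon 2 (3.77 and 2.41). No shared interval was found in kinesin-5, kinesin-6, kinesin-9, kinesin-12 or kinesin-13, 12 genes in all. Over all protein-coding genes 45.5% held one. Peaks in replicate 1 alone were present in Kif6 (4.04), Kif20a, Kifc1 (3.29) and Kifc5b (6.54). Both Kif20a peaks also cover exons of the neighbouring gene Cdc23. Exon 7 of Kifc1 and of Kifc5b, where their peaks lay, was 99.1% identical over 780 nt, so a peak there cannot be assigned to one gene with certainty. Kif2a had 1.31 in replicate 1 and 1.81 in replicate 2 in different exons. The 14 genes with no peak were the spindle and cytokinesis motors Kif11, Kif14, Kif15, Kif18a, Kif18b, Kif20b, Kif23, Kif2c and Kif4, and Kif12, Kif24, Kif28, Kif2b and Kif9.

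**Figure D3:**
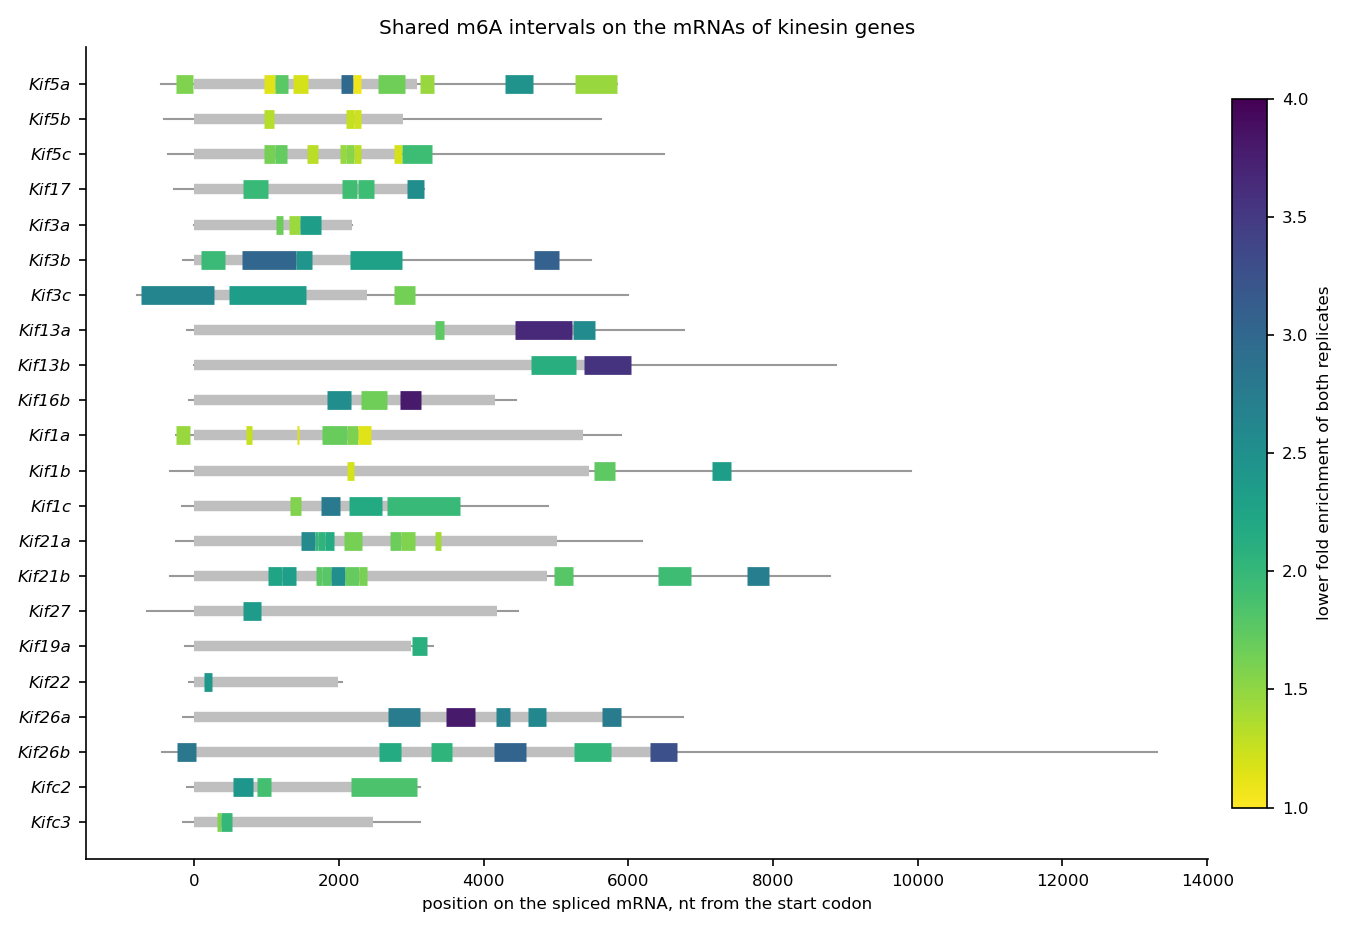
Shared intervals on the representative mRNAs of the 22 kinesin genes that hold any, in nt from the start codon, with UTRs as thin lines and the coding sequence as a grey bar, coloured by the lower fold enrichment of both replicates. Intervals of Kif5b, Kif5c and Kif1a are mostly pale, and those of Kif13a, Kif13b, Kif26a and Kif26b are darker and reach the stop codon.

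The intervals were placed on the mRNA by the middle of their exonic bases, which was possible for 94 of the 100. The representative mRNA of Kif3a has no annotated UTRs and that of Kif13b no 5′ UTR. The coding sequence held 72 of them (76.6%, 67.1 to 84.0), beside 61.0% over all protein-coding genes. The 3′ UTR held 18 (19.1%, 12.5 to 28.3) beside 28.4%, and the 5′ UTR 4 (4.26%, 1.67 to 10.4) beside 10.6%. Within 200 nt of the stop codon lay 9 (9.57%, 5.12 to 17.2), beside 22.9% over all genes. This window held 6.51% of the bases of the kinesin mRNAs and 12.3% of those of all genes. Shares of bases, here and below, are averaged over intervals, so an mRNA with more intervals counts more. Among all genes with at least 20 exons the coding sequence held 72.0% of intervals, the 3′ UTR 21%, the 5′ UTR 6.99% and the stop codon window 14.9%. The coding sequence made up 63.8% of the bases of the kinesin mRNAs and the 3′ UTR 31.9%. These shares of bases were 54.8% and 37.7% over all genes, and 72.5% and 23.4% over genes with at least 20 exons. When each coding sequence was divided into 3 equal parts, 12 of the 72 were in the first (16.7%, 9.80 to 26.9), 36 in the middle (50.0%, 38.7 to 61.3) and 24 in the last (33.3%, 23.5 to 44.8). Over all genes these shares were 31.6%, 28.9% and 39.5%.

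**Figure D4:**
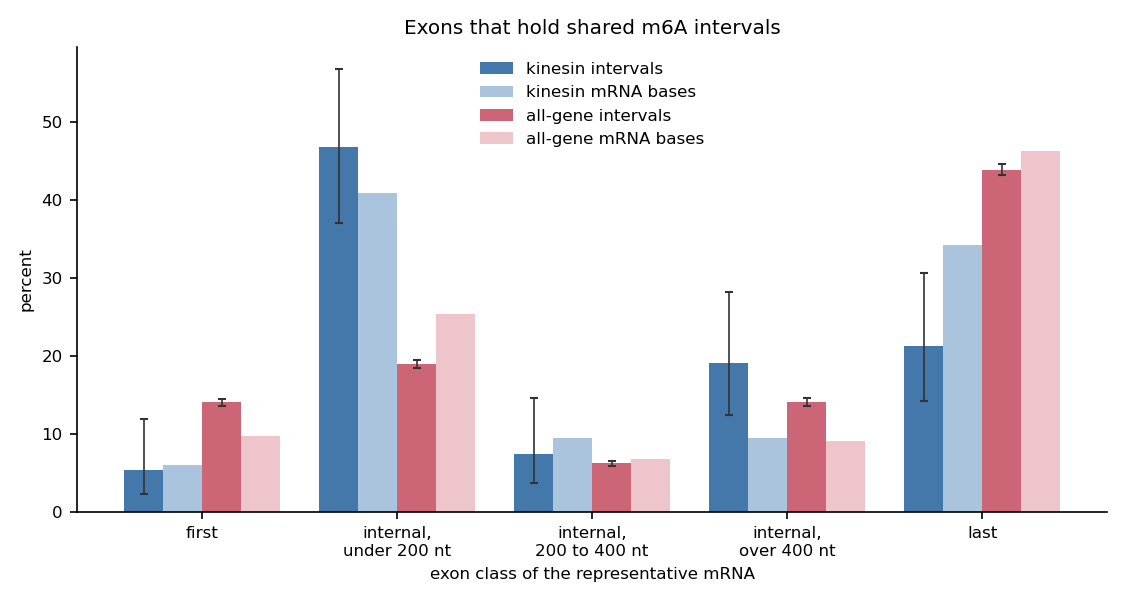
Percent of shared intervals in each exon class for kinesin genes (blue) and all protein-coding genes (red), with Wilson 95% intervals, beside the percent of mRNA bases in that class, averaged over intervals (pale bars, no error). Internal exons under 200 nt hold 46.8% of kinesin intervals against 19.0% over all genes, and last exons 21.3% against 43.9%.

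Short internal exons took the largest share. Internal exons under 200 nt held 44 of the 94 intervals (46.8%, 37.0 to 56.8), where 40.9% of the bases lay, while over all genes they held 19.0% of intervals and 25.4% of bases. Counting only genes with a placed interval, one was found in 44 of 436 such exons of 22 kinesin mRNAs (10.1%). Over the 9685 protein-coding genes with a placed interval the share was 5.18%. Kinesin genes have many exons, and among genes with at least 20 exons the shares were 58.7% (37 of 63 intervals) for kinesins and 32.2% (1520 of 4718) for all. The 44 were spread over 14 genes, with 7 in Kif5c, 6 each in Kif21a and Kif21b, 5 in Kif1a and 4 in Kif5a. Without Kif5a, Kif5b, Kif5c, Kif21a and Kif21b the share was 18 of 55 (32.7%, 21.8 to 45.9), beside 40.2% of bases there. Both Wilson intervals, with and without these genes, include the share of bases. The 5 genes were picked after seeing their many short-exon intervals, so a lower share without them was bound to follow. Without them 18 of 311 such exons held an interval (5.79%), near the 5.18% over all genes with a placed interval. Of the 44 intervals 42 covered the whole exon, with a median of 120.5 nt of exon under a median interval of 325.5 nt, so the files do not place the mark within the exon. They were weak, the median being 2.23 in replicate 1 and 1.65 in replicate 2. With a fold of at least 2 in both replicates the share was 30.2% for kinesins and 9.52% for all genes.

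Within the 22 genes that hold a shared interval, most long internal exons held one. Their mRNAs have 13 internal exons over 400 nt, and 9 held one (69.2%). Over all genes with a placed interval the share was 75.4%. Together they held 18 intervals (19.1%, 12.5 to 28.3) on 9.43% of the bases, with median folds of 4.09 and 2.58. Over all genes such exons held 14.1% of intervals on 9.03% of the bases. Among all genes with at least 20 exons they held 19.97% on 11.6% of the bases. Kinesins with at least 20 exons had 6 of 63 intervals there (9.52%, 4.44 to 19.3), on 3.01% of the bases. Kif16b, Kif26a and Kif26b carried most of the 18 intervals. Without these 3 genes the share was 7 of 80 (8.75%, 4.30 to 17.0) on 4.58% of the bases, with medians of 4.09 and 2.17. Genes without a shared interval are outside these counts and have long internal exons too. Empty ones, in genes without any peak, were exon 11 of Kif24 (2226 nt) and exon 19 of Kif20b (1234 nt). So were exon 13 of Kif18b (526 nt) and exon 14 of Kif18a (412 nt). Exon 7 of Kifc1 and of Kifc5b (780 nt each) and exon 5 of Kif7 (520 nt) had a peak in 1 replicate only. Last exons held 20 intervals (21.3%, 14.2 to 30.6), beside 43.9% over all genes and 27.8% over genes with at least 20 exons, with medians of 2.80 and 2.22. They made up 34.2% of the bases of the kinesin mRNAs, 46.4% over all genes and 26.8% over genes with at least 20 exons. Intervals whose middle lay in the 300 nt after a stop codon were found in 11 genes, from 116 nt in Kif19a to 269 nt in Kif3b, among them Kif5a at 133 nt (1.46 and 1.97) and Kif5c at 210 nt (1.94 and 2.09).

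Over all 100 intervals replicate 1 had a median fold enrichment of 2.76, with quartiles of 2.11 and 3.73, and replicate 2 one of 1.99, with quartiles of 1.63 and 2.57, beside 2.98 and 2.30 over all protein-coding genes. Replicate 1 was higher in 79 of the 100, and in 77.8% over all genes. Both values were at least 2 in 47, against 61.5% over all genes. Of the 135 exonic kinesin peaks of replicate 1, 71.1% met a replicate 2 peak, and of the 136 of replicate 2, 72.8% met one of replicate 1. Over all peaks of the genome, those outside exons included, these shares were 60.0% and 77.0%. Kinesin peaks without a partner were weaker, at a median of 2.03 for replicate 1 and 1.60 for replicate 2.

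**Figure D5:**
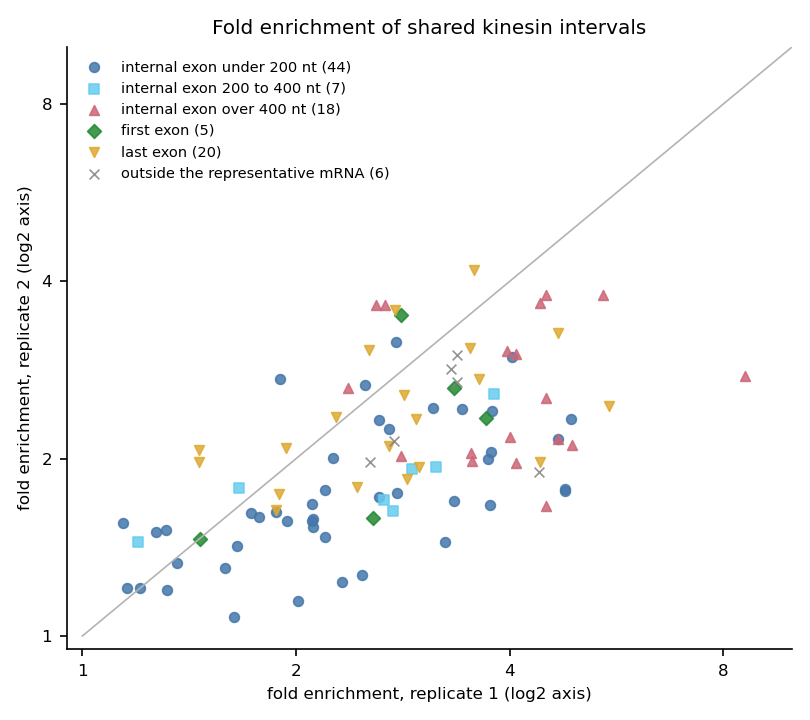
Fold enrichment in replicate 1 against replicate 2 (both axes log2) for the 100 shared kinesin intervals, by the exon that holds them, with the line of equal values. Most points, 79 of 100, lie below the line, intervals of internal exons under 200 nt gather at the lower left, and those of internal exons over 400 nt lie further out.

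GGACT was counted on the mRNA strand, and every GGACT is also a GGAC. It occurred 1.76 times per kb inside the kinesin intervals and 1.12 times per kb in the rest of the same mRNAs, beside 1.60 and 0.983 over all genes. Of the 94 intervals 30 held a GGACT (31.9%, 23.4 to 41.9), beside 37.5%, and 66 held a GGAC (70.2%, 60.3 to 78.5), beside 74.5%. By exon class GGACT was in 61.1% of intervals of internal exons over 400 nt (47.9% over all genes), in 55.0% of those of last exons (49.0%) and in 11.4% of those of internal exons under 200 nt (10.9%). Without Kif16b, Kif26a and Kif26b it was in 3 of 7 intervals of the long internal exons (42.9%). The shares by exon class were not scaled to the exonic bases searched, a median of 145.5 nt per kinesin interval in internal exons under 200 nt. These matches describe the letters and mark no methylated base.

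Genes that work with kinesins or against them were counted in the same way, beside 45.5% over all protein-coding genes and 52.4% of the kinesin genes. Of 14 partners, among them the light chains Klc1 to Klc4, the mitochondrial adaptors Trak1 and Trak2 and the Jip scaffolds Mapk8ip1, Mapk8ip2 and Mapk8ip3, 12 held a shared interval, all but the centromere motor Cenpe and Kifap3, the kinesin-2 accessory subunit. Of 24 dynein, dynactin and dynein-adaptor genes 22 did, all but Actr10 and Dctn4. Internal exons under 200 nt held 43.2% of the 44 placed intervals of the partners (29.7 to 57.8) and 40.9% of the 66 of the dynein list (29.9 to 53.0), both near the 46.8% of the kinesin genes. The 5′ UTR held 19.7% of the dynein intervals (11.9 to 30.8) and 4.26% of the kinesin intervals.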

How the data were processed

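m6A-seq of whole brain mRNA gave 2 m6A IP and 2 input samples. The authors trimmed and filtered reads, aligned them to mm10 (TopHat2 2.0.9 per the submitters' processing notes, another version per the methods), kept uniquely mapped reads and called peaks with MACS2 in each IP against its own input. The deposited value is a linear fold enrichment, the ratio of IP over input, for each peak; replicates were not pooled, and inputs were not analysed here. Whether a peak is called also depends on the reads over each mRNA, which the peak lists do not give.

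Peaks were joined to exons of any transcript of a gene (at least 1 base) in GENCODE M21 with Python 3.11.15, pandas 2.3.3 and numpy 2.4.6; overlaps were checked with bedtools 2.31.1 and placement was tested on simulated data. Position was read on the transcript with the longest coding sequence, by the middle exonic base. Shares carry Wilson 95% intervals (scipy 1.17.1), which cover counting error only. Named with values are the transport motors, the 8 genes with most intervals, the 10 strongest intervals and genes with a peak in 1 replicate or none; others were named after their values were seen. Members and lists were chosen with earlier results of these data known. Alternatives covered the overlap, the fold threshold, the exons used, the position rule, the stop codon window, the motif and each replicate alone.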

Additional observations from a re-analysis of the deposited data

How the results depend on the processing

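Of 46 values recomputed for 8 results, 36 stayed within a set limit of the reported value and 10 moved. For gene and interval counts the limit was a fixed ratio, wide enough to pass 136 in place of 100. For shares it was the Wilson interval. For fold medians and GGACT per kb it was the standard deviation between the 2 replicates. Of the 46 values, 14 belong to settings chosen after seeing the data. A fold of at least 2 in both replicates moved 4 of the results: 47 shared intervals in place of 100, 65.1% of them in exons over 400 nt in place of 43.6%, 30.2% in internal exons under 200 nt in place of 46.8%, and 1.97 GGACT per kb in place of 1.76. Leaving out Kif5a, Kif5b, Kif5c, Kif21a and Kif21b gave 60.0% and 32.7% for these exon shares. Leaving out Kif16b, Kif26a and Kif26b gave 33.8% in exons over 400 nt. Counting GGAC in place of GGACT gave 6.08 per kb, and a window of 100 nt around the stop codon gave 2.13% in place of 9.57%. With each replicate alone, leaving out the other, genes with a peak numbered 24 to 28, peaks 135 to 136, the share near the stop codon was 9.38% to 9.45%, that in exons over 400 nt 37.0% to 37.5%, that in internal exons under 200 nt 50.0% to 50.4% and GGACT 1.48 to 1.71 per kb. No paired analysis was possible because no test was run and both samples belong to 1 condition. The cause of these shifts was not tested. Without read counts, depth was unknown, and short exons are narrower than the peaks over them, so the position of the mark inside them is not resolved.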

Other observations

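Some peaks lay inside kinesin genes but outside every annotated exon of them, 10 in 6 genes in replicate 1 and 5 in 4 genes in replicate 2. The strongest was in an intron of Kif5c, chr2:49763986-49764591 in replicate 1 at 7.40-fold and chr2:49764077-49764463 in replicate 2 at 3.87-fold, above every exonic interval of that gene. Kif15, a spindle motor without any exonic peak, had an intronic one at 3.22 and 3.43. Both shared intronic peaks of Kif17 (3.54 and 2.26, 2.78 and 2.08) cover exons of Sh2d5, and the files give no strand.

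Outside the representative mRNAs, 1 shared interval of Kif21b (2.75 and 2.14) covered exon 35 of a transcript annotated as a target of nonsense-mediated decay, and 1 of Kif17 (2.54 and 1.97) covered an alternative first exon that also touches Sh2d5.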
